A study of Mus musculus with 19 samples.

Results

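The genes described here are 9 members of the Slc7 and Slc3 families of amino acid transporters, namely Slc7a1, Slc7a2, Slc7a3, Slc7a5, Slc7a7, Slc7a8, Slc7a11, Slc3a1 and Slc3a2. They were taken by gene name from the array annotation, 9 of its 29742 names, and had 11 of the 41174 probes on the array. All 11 were among the 29326 probes bright enough to be tested. Pancreatic islets of 19 mice were profiled: 5 C57BL/6 (B6; C57BL6/J in the series design) and 5 C57BLKS/J (BLKS) mice with islets held in 5 mM (low) glucose, and 5 B6 and 4 BLKS mice with islets held in 20 mM (high) glucose. All mice were male and 12 weeks old, and none carried an obesity mutation. The islets of each mouse were kept apart from those of every other mouse, spent 48 h in 11 mM glucose first, and were then cultured for 24 h at the low or high concentration. Each sample was therefore the islets of 1 mouse, taken out of the body and cultured, with endocrine and other islet cells together. The comparisons asked how the transporter mRNAs followed glucose in each strain, and how they differed between a strain whose islets fail under diabetic stress and one whose islets adapt.

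Amino acids cross the plasma membrane through carriers with overlapping preferences. Slc7a1, Slc7a2 and Slc7a3 encode the cationic amino acid transporters, which carry arginine, lysine and ornithine and work as single chains. Slc7a5, Slc7a7, Slc7a8 and Slc7a11 encode light chains that need a heavy chain to reach the membrane, Slc3a2 for these 4 and Slc3a1 for the cystine and dibasic amino acid system of kidney and gut. In beta cells arginine depolarizes the membrane and stimulates insulin release, and amino acid supply feeds the heavy load of proinsulin synthesis.

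Of the libraries in low glucose, 1 of each strain went against its label. On 106 probes that separated the strains in high glucose, with B6 set to 0 and BLKS to 1, a position of 0.99 was found for the library labelled B6 low glucose 4. The library labelled BLKS low glucose 5 had a position of -0.01. The other B6 low glucose libraries lay between -0.04 and 0.05, and the other BLKS low glucose libraries between 0.93 and 1. The labels were kept. For the members, and for the counts printed for the related gene lists, results are given without these 2 libraries too where that changed a call or moved a count. Single genes of those lists and the cell type markers are given with all mice unless stated. Beta cell identity was present in every group: all 13 beta cell markers were tested and their summed linear signal was 227000 to 284000 per mouse. The 12 tested acinar markers of 14 listed summed to 2190 to 3560.

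Slc7a3, the cationic transporter first described in brain, was the member that moved most. In B6 islets in low glucose its log2 signal was 6.74, 7.07, 6.95, 7.68 and 6.62 in mice 1 to 5, and in high glucose it was 8.14, 8.39, 8.37, 8.01 and 8.16. Every high glucose value lay above every low glucose value. The highest of the low glucose values, 7.68, belonged to the library labelled B6 low glucose 4. The group means were 7.01 ± 0.41 (SD, n = 5) and 8.21 ± 0.16 (SD, n = 5), which is a rise by 1.20 ± 0.18 (SE) in log2, or 2.3-fold (limma, adjusted p = 0.000347 over all tested probes; exact 2-sided permutation p = 0.00794, the smallest that this design allows). In bulk islets more RNA per cell and more cells of an expressing type cannot be told apart.

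In BLKS islets the Slc7a3 signal had the higher mean at either concentration. Their Slc7a3 log2 signal in low glucose was 7.99, 7.75, 7.79, 7.86 and 6.96 in mice 1 to 5, and in high glucose it was 9.36, 9.13, 8.97 and 9.24 in mice 1 to 4. The groups did not overlap, and the low value of 6.96 belonged to the library labelled BLKS low glucose 5. The group means were 7.67 ± 0.41 (SD, n = 5) and 9.17 ± 0.16 (SD, n = 4), so that Slc7a3 rose by 1.50 ± 0.20 (SE) in log2, or 2.84-fold (limma, adjusted p = 7.01e-05; exact 2-sided permutation p = 0.00794, the smallest possible). Of the 29326 tested probes 12 rose further than Slc7a3 in B6 islets and 3 in BLKS islets. The rise differed between the strains by 0.30 in log2 (95% interval -0.26 to 0.87; limma, adjusted p = 1), so a difference between the responses was not shown. Without both doubtful libraries the rises were 1.37 in B6 and 1.33 in BLKS, and their difference was -0.04 (95% interval -0.34 to 0.26).

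**Figure D1:**
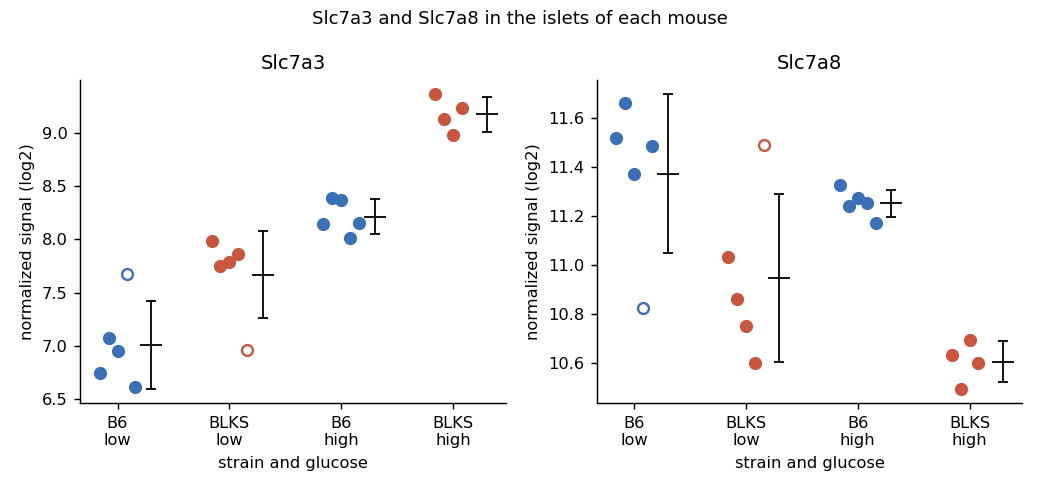
Normalized log2 signal of Slc7a3 (left) and Slc7a8 (right) for each mouse, by strain and glucose, with 1 point per mouse and the group mean and SD over all mice as a black bar; the vertical axes differ and do not start at 0. Open circles are the 2 libraries that went against their labels, B6 mouse 4 and BLKS mouse 5 in low glucose, which sit at 7.68 and 6.96 for Slc7a3 and at 10.82 and 11.49 for Slc7a8. Each of these lay nearer to the mean of the other strain's remaining low glucose mice than to that of its own.

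In high glucose BLKS islets held more Slc7a3 mRNA than B6 islets, with no overlap between the 4 BLKS and 5 B6 mice. The difference was 0.96 ± 0.20 (SE) in log2, or 1.95-fold (limma, adjusted p = 0.00582; exact 2-sided permutation p = 0.00794). The same-numbered mice of both strains shared their arrays, and within the 4 array pairs in high glucose BLKS exceeded B6 by 1.22, 0.74, 0.60 and 1.23. In low glucose the strain difference was 0.66 ± 0.18 (SE), the groups overlapped, and limma did not call it (adjusted p = 0.132; exact 2-sided permutation p = 0.0317). Limma called it once the shared arrays entered as a replicate block (adjusted p = 0.0346 for a fixed and 0.00572 for a random block). Within array pairs 1 to 5 BLKS exceeded B6 by 1.24, 0.68, 0.84, 0.19 and 0.34. Pairs 4 and 5 each held a doubtful library, so both libraries of the pair had nearly the same strain position (0.99 and 1 in pair 4, -0.04 and -0.01 in pair 5). Without both doubtful libraries the strain difference was 1.0 ± 0.10 (SE) with no overlap (limma, adjusted p = 2.18e-06). Ordered by their means, the groups ran from B6 low through BLKS low and B6 high to BLKS high. BLKS low minus B6 high was -0.54 with no overlap (exact 2-sided permutation p = 0.00794), and -0.37 once the doubtful BLKS library was left out (exact 2-sided permutation p = 0.0159), so the low glucose groups were the only neighbours in that order that overlapped. On the 1 array pair that held both concentrations, scanned later than the rest, B6 high glucose 5 exceeded a repeat of B6 low glucose 1 by 1.41.

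The other cationic transporters had no called change with glucose. Slc7a1, the widely expressed arginine carrier, lay between 7.10 and 7.47 in the 5 B6 mice in low glucose and between 7.01 and 7.54 in high glucose. Its log2 change was 0.01 (95% interval -0.18 to 0.20) in B6 and 0.03 (95% interval -0.17 to 0.22) in BLKS islets. Slc7a2, the carrier induced in activated macrophages and abundant in liver, lay between 6.95 and 7.34 in B6 mice in low glucose and between 7.05 and 7.22 in high glucose. Its change was -0.09 (95% interval -0.26 to 0.08) in B6 and 0.00 (95% interval -0.18 to 0.18) in BLKS islets. Neither gene passed limma's test in any comparison over all mice. Without both doubtful libraries the Slc7a2 mean in low glucose was 6.98 ± 0.10 (SD, n = 4) for BLKS against 7.27 ± 0.06 (SD, n = 4) for B6 mice, a called difference of -0.30 (limma, adjusted p = 0.00281).

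Among the neutral amino acid carriers, Slc7a8 differed between the strains. Slc7a8 encodes LAT2, a light chain for small and large neutral amino acids. In high glucose its log2 signal was 11.32, 11.24, 11.27, 11.25 and 11.17 in B6 mice 1 to 5 and 10.63, 10.49, 10.69 and 10.60 in BLKS mice 1 to 4. Every BLKS mouse lay below every B6 mouse. The difference was -0.65 ± 0.15 (SE), a 1.57-fold lower level in BLKS (limma, adjusted p = 0.0114; exact 2-sided permutation p = 0.00794), and within array pairs it was -0.69, -0.74, -0.58 and -0.65. Slc7a3 and Slc7a8 were the 2 of 11 member probes called in this comparison, in opposite directions, where 11.1% of all tested probes were called.

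In low glucose Slc7a8 measured 11.52, 11.66, 11.37, 10.82 and 11.49 in B6 mice and 11.03, 10.86, 10.75, 10.60 and 11.49 in BLKS mice. The B6 value of 10.82 and the BLKS value of 11.49 were those of the doubtful libraries, and through them the groups overlapped. The strain difference was -0.43 ± 0.14 (SE) and not called (limma, adjusted p = 0.167), but it was called with shared arrays as a replicate block (adjusted p = 0.0348 fixed, 0.00931 random). Within array pairs 1 to 5 it was -0.49, -0.80, -0.62, -0.22 and 0.00, and pairs 4 and 5 each held a doubtful library. Without both libraries the strain difference was -0.70 ± 0.08 (SE) with no overlap (limma, adjusted p = 4.14e-06). The glucose change of Slc7a8 was -0.12 ± 0.14 (SE) in B6 (limma, adjusted p = 0.705) and -0.34 ± 0.15 (SE) in BLKS islets (adjusted p = 0.167). Without both libraries these were -0.26 (adjusted p = 0.0252) and -0.21 (adjusted p = 0.105).

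Slc7a5 encodes LAT1, the leucine and aromatic amino acid carrier that supplies mTORC1 with leucine. It lay between 10.65 and 11.22 over all 19 mice. Its glucose change was 0.03 (95% interval -0.16 to 0.21) in B6 and -0.05 (95% interval -0.24 to 0.15) in BLKS islets. Its strain difference was 0.07 (95% interval -0.12 to 0.27) in high glucose. Without both doubtful libraries, Slc7a5 in low glucose was 0.28 higher in the BLKS mice (limma, adjusted p = 0.00672), against 0.14 (adjusted p = 0.475) with them.

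**Figure D2:**
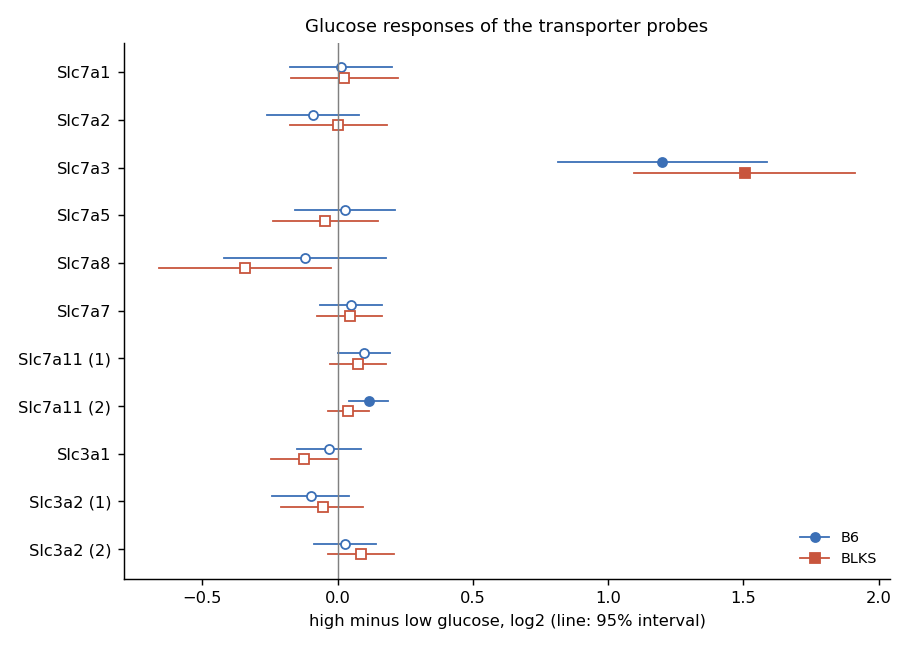
Change from low to high glucose in log2 for the 11 member probes in B6 (circles) and BLKS (squares) islets, with 95% intervals; filled symbols passed limma's test at an adjusted p of 0.05. Slc7a3 stands at 1.20 and 1.50, and the other probes lie between -0.34 and 0.11 (of genes with 2 probes, 1 and 2 are in the order of the text).

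Slc7a7 encodes y+LAT1, which trades cationic for neutral amino acids. It lay between 6.94 and 7.25 over all mice and changed with glucose by 0.05 (95% interval -0.06 to 0.17) in B6 and 0.04 (95% interval -0.08 to 0.17) in BLKS islets. Slc7a11 encodes xCT, the cystine and glutamate exchanger that feeds glutathione synthesis, and was close to the background of the array. Its first probe, A_51_P129502, was well above background in 15 of 19 mice and its glucose change in B6 islets was 0.10 (limma, adjusted p = 0.233). It was 0.13 without both doubtful libraries, with no overlap, and called (adjusted p = 0.0345). The second, A_52_P298824, was well above background in 4 of 19 mice, none of them a B6 mouse in low glucose. It measured 5.90, 5.88, 5.92, 6.06 and 5.93 in B6 low and 6.05, 6.04, 6.06, 6.06 and 6.06 in B6 high glucose, a called rise of 0.11 (limma, adjusted p = 0.039). In Cy5 it was well above background on 1 of 5 arrays of B6 high and on 0 of 6 arrays of B6 low glucose, so no fold is given. The call was lost without any 1 of the 5 high glucose mice, at 0.11 to 0.12, and was kept without the library labelled B6 low glucose 4, at 0.14. A further pair of probes carried another name in the annotation and matched Slc7a11 only through their accession. Of these A_52_P368057 rose by 0.26 in B6 (limma, adjusted p = 0.0238) and by 0.23 in BLKS islets (adjusted p = 0.0555), and A_52_P663446 changed by 0.04 in each strain (adjusted p = 0.588 and 0.569).

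The promoters of Slc7a11 and Slc7a7 were the searched member promoters that held the letters of an amino acid response element, the short site bound by ATF4 when amino acids run low or the endoplasmic reticulum is stressed. The motif searched was TGATGNAA on either strand, in windows from 250 bases before to 50 after each RefSeq start (GRCm38.p6). A match was found in 1304 of 32851 promoters (3.97%), or in 1219 of 27025 genes (4.51%). Of the 6 members with a promoter in the table, 2 held it. Slc7a3, Slc7a2 and Slc7a5 were not searched. The stretches of these members are shown with the motif in capitals, beside those of Pycr1 and Asns, ATF4 targets described below that rose with glucose in B6 islets. Of 29 genes with a promoter on the list of amino acid response genes below, 9 held the motif. The promoters of Aldh18a1 and Stc2 were searched and did not hold it. These genes rose with glucose too, Aldh18a1 by 0.38 in B6 and Stc2 by 0.92 in BLKS islets. The motif began 66 and 47 bases before the start in Slc7a11, 103 in Pycr1 and 23 in Asns. In Slc7a7 it began 141 and 243 bases before a start, and these were 2 different RefSeq starts. All stretches are written in the direction of the gene, which is the minus strand for each.
Slc7a11, chr3:50443661-50443690: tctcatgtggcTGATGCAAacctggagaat
Slc7a11, chr3:50443642-50443671: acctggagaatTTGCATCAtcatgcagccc
Slc7a7, chr14:54418067-54418096: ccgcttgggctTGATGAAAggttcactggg
Slc7a7, chr14:54417927-54417952: tagaagcTGATGCAAcagcttccccg
Pycr1, chr11:120643833-120643862: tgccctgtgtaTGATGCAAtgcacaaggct
Asns, chr6:7693214-7693243: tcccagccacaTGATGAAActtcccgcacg
The 2 stretches of Slc7a11 overlap and carry the motif on opposite strands. Slc7a11 and Slc7a7 changed by 0.11 or less with glucose in either strain on the probes of that name, while Pycr1 rose by 0.70 in B6 and 0.71 in BLKS islets. A match describes these letters alone.

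The heavy chains had no called difference in any comparison. Slc3a2, or 4F2hc, the partner of the light chains named above, had a bright and a dim probe. The bright probe, A_51_P472901, lay between 12.31 and 12.71 over all mice and changed with glucose by -0.10 (95% interval -0.24 to 0.04) in B6 and -0.06 (95% interval -0.21 to 0.10) in BLKS islets. The dim probe, A_52_P245648, changed by 0.03 in B6 and 0.09 in BLKS islets, so the probes differed in sign within their intervals. Slc3a1, or rBAT, lay between 6.21 and 6.60, and its changes were -0.03 (95% interval -0.15 to 0.09) and -0.12 (95% interval -0.25 to 0.00).

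Set beside each other, Slc7a3 and the other members did not share intervals for the glucose response. Its 95% interval began at 0.82 in B6 and at 1.10 in BLKS islets, whereas the intervals of the other 10 probes reached no higher than 0.21 and 0.22. The rise of Slc7a3 exceeded the change of another member probe by 1.09 to 1.32 in B6 and by 1.42 to 1.85 in BLKS islets, given as a description. Limma called 2 of 11 member probes in B6 islets, where it called 9.53% of all tested probes, and 1 of 11 in BLKS islets, where it called 11.6%. The low and high glucose mice did not overlap for 1 of 11 member probes, Slc7a3, in either strain, against 7.44% of all probes in B6 and 13.3% in BLKS islets. BLKS and B6 mice did not overlap for 2 of 11 in high glucose, against 14.4%, and for none in low glucose, against 1.2%. Without both doubtful libraries the glucose counts were 5 of 11 in B6, against 11.7%, and 2 of 11 in BLKS islets, against 15.5%, and the low glucose strain count was 6 of 11, against 18%. The probes added were those of Slc7a8, Slc7a2 and Slc7a11 in B6 and of Slc7a5 in BLKS islets. Averaged over the strains, Slc7a3 rose by 1.35 ± 0.13 (SE) (adjusted p = 1.14e-06), and it was 1 of 2 member probes called against 22.3% of all probes. The difference between the responses was called for none of the 11 probes and for 0.0409% of all probes. None of the 11 had an unadjusted p under 0.05 for it either.

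For the strain difference in low glucose limma called no member and 0% of all probes, with 3 of 11 members and 4705 of 29326 probes at an unadjusted p under 0.05. Without both doubtful libraries it called 6 of 11 member probes and 15.6% of all probes. These were Slc7a3, Slc7a5 and both Slc7a11 probes, higher in BLKS islets, and Slc7a8 and Slc7a2, lower in BLKS islets. The Slc7a11 differences were 0.15 and 0.11.

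**Figure D3:**
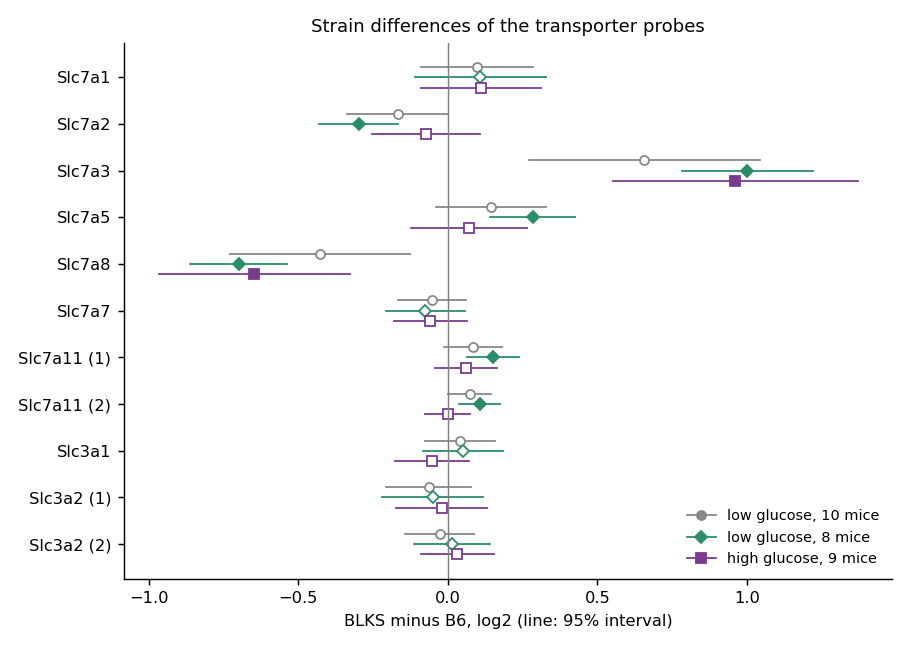
BLKS minus B6 in log2 for the 11 member probes, with 95% intervals, in low glucose with all 10 mice (circles), in low glucose without the 2 doubtful libraries (diamonds) and in high glucose (squares); filled symbols passed limma's test. Slc7a3 lies at 0.66, 1.0 and 0.96 and Slc7a8 at -0.43, -0.70 and -0.65.

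Of 38 tested genes of other amino acid transporter families and remaining Slc7 genes, 2 rose in B6 islets and none fell, where 9.53% of all probes were called. In BLKS islets 5 rose and 1 fell, where 11.6% of all probes were called. The median changes were 0.00 and 0.01. With both doubtful libraries left out, 4 rose and 2 fell in B6 islets, and 5 rose and 1 fell in BLKS islets, against 12.2% and 9.9% of all probes. Slc7a4, a relative of the cationic transporters with no known substrate, rose by 0.29 in B6 (limma, adjusted p = 0.0104) and by 0.45 in BLKS islets (adjusted p = 0.000418), and in high glucose was 0.33 above B6 in BLKS islets (adjusted p = 0.00821). Slc38a10, a glutamine transporter relative, rose by 0.30 and 0.55. Slc38a2, or SNAT2, the small neutral amino acid carrier that amino acid shortage induces, rose by 0.34 in BLKS islets (adjusted p = 0.00396) and had a change of 0.21 in B6 islets (adjusted p = 0.0579). In high glucose Slc6a17 was 0.34 higher and Slc6a6, the taurine carrier, 0.23 lower in BLKS islets (adjusted p = 0.0224 and 0.0498). Of the 38, 3 were higher and 4 lower there without both doubtful libraries, against 2 and 1 with them. All probes were called at 15.3% and 11.1% in these 2 settings.

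**Figure D4:**
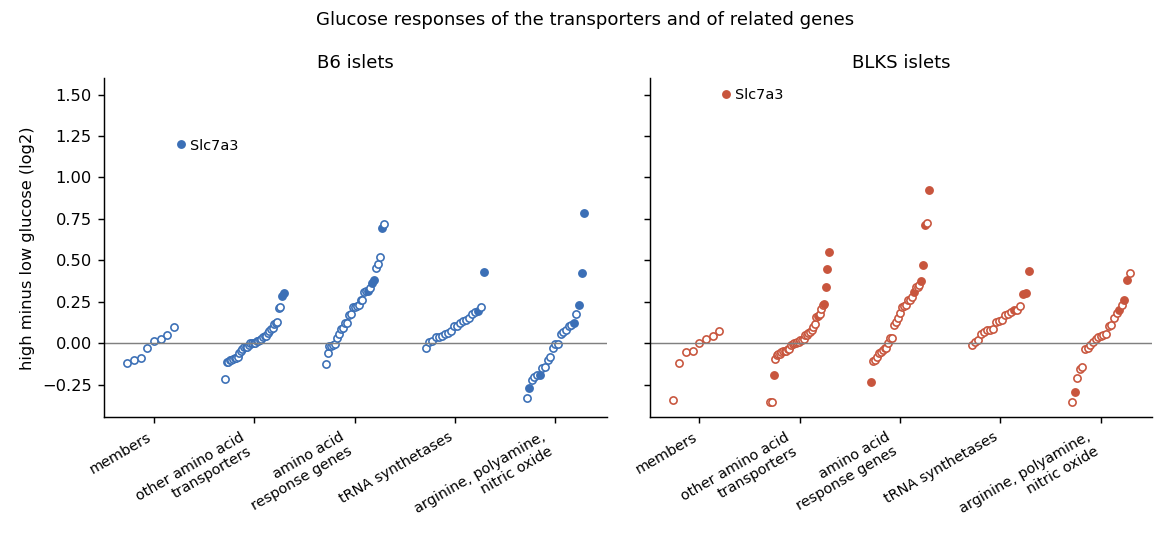
Change from low to high glucose in log2 for the 9 members (1 probe a gene) and for 4 lists of related genes, in B6 (left) and BLKS (right) islets; each point is a gene, sorted within its list, and filled points passed limma's test. Slc7a3 is the highest point in either panel, at 1.20 and 1.50, and the amino acid response genes have medians of 0.22 and 0.18.

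Of 31 tested genes driven by or acting with ATF4, 4 rose and none fell in B6 islets (median 0.22), and 5 rose and 1 fell in BLKS islets (median 0.18). Over all tested probes the median change was -0.01 and 0.00, and 9.53% and 11.6% of them were called. Pycr1, the last enzyme of proline synthesis, rose by 0.70 ± 0.08 (SE) in B6 and 0.71 ± 0.08 (SE) in BLKS islets (limma, adjusted p = 2.59e-05 and 2.93e-05). Its mice ranged from 8.05 to 8.56 in B6 low and from 8.89 to 9.04 in B6 high glucose. Aldh18a1, the first enzyme of that pathway, and Asns, asparagine synthetase, rose by 0.38 and 0.36 in B6 islets. In BLKS islets Aldh18a1 rose by 0.31, and Asns had a change of 0.15 (adjusted p = 0.336). Stc2, a secreted glycoprotein of the stress response, rose by 0.92 in BLKS islets (adjusted p = 3.68e-05), where Cth, which makes cysteine, rose by 0.47. In high glucose Stc2 was 1.03 higher and Cth 0.69 higher in BLKS islets (limma, adjusted p = 8.3e-05 and 0.00387). They were the 2 genes of this list called there, where 11.1% of all probes were called. Both were dim in B6 islets in high glucose, with means of 6.34 and 6.52, against 7.38 and 7.21 in BLKS islets.

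These counts moved with the 2 doubtful libraries. Without them 19 of 31 amino acid response genes rose in B6 islets, where 12.2% of all probes were called, and 6 rose and 1 fell in BLKS islets, where 9.9% were called. In low glucose 25 of 31 were higher in BLKS islets and none was lower, with a median of 0.43 and 15.6% of all probes called, where none had been called with the libraries in. In high glucose 15 of 31 were higher in BLKS islets, against 15.3% of all probes called in either direction. Nupr1, Phgdh and Trib3, 3 ATF4 targets, were among the genes higher in BLKS islets in low glucose, by 1.18, 1.04 and 1.03.

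Of 20 tested aminoacyl tRNA synthetases, which charge tRNAs with amino acids, 2 rose in B6 and 4 in BLKS islets and none fell, with medians of 0.10 and 0.14. All probes were called at 9.53% and 11.6% in these comparisons. Leaving out both doubtful libraries, 8 of 20 rose in B6 islets, where 12.2% of all probes were called, and 3 of 20 in BLKS islets, where 9.9% were called. Hars rose by 0.43 in each strain, and Kars by 0.19 and 0.30. Eprs rose by 0.30 in BLKS islets (limma, adjusted p = 0.0385). In high glucose Eprs, Kars and Farsa were higher in BLKS islets, by 0.28, 0.18 and 0.11, and without both doubtful libraries 7 of 20 were. All probes were called at 11.1% with these libraries and at 15.3% without them. In low glucose without both doubtful libraries, Eprs, Farsa, Hars, Lars, Mars1 and Nars were called higher in BLKS islets. So were Rars, Sars, Tars, Vars and Wars. These differences ran from 0.13 for Vars to 0.41 for Wars, no synthetase was called lower, and 15.6% of all probes were called.

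Among 23 tested genes that use arginine or make polyamines or nitric oxide, 4 rose and 2 fell in B6 islets, and 3 rose and 1 fell in BLKS islets. All probes were called at 9.53% and 11.6% in these comparisons. Nos2 and Arg2 were on the list but were not tested. In B6 islets 3 rose and 4 fell without both doubtful libraries, and the BLKS counts were 3 and 1 again, against 12.2% and 9.9% of all probes. Odc1, which makes putrescine from ornithine, rose by 0.79 in B6 islets (limma, adjusted p = 0.000119) and had a change of 0.15 in BLKS islets (adjusted p = 0.436). Srm, which makes spermidine, rose by 0.42 in B6 and 0.38 in BLKS islets. Pts, of tetrahydrobiopterin synthesis, fell by 0.27 in B6 and by 0.29 in BLKS islets. Nos1, the neuronal nitric oxide synthase, rose by 0.26 in BLKS islets and in high glucose was 0.27 higher in BLKS islets. Its probe was dim, with group means of 6.44 in B6 low to 6.77 in BLKS high glucose. Asl, which releases arginine from argininosuccinate, was 0.39 higher in BLKS islets at that concentration (adjusted p = 0.000941). In that comparison 2 of the 23 were higher and 2 lower, and 3 and 3 without both doubtful libraries, against 11.1% and 15.3% of all probes.

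Over the 19 mice, the genes whose signal ran most like that of Slc7a3 were Hsp90b1 (r = 0.986), Dnajc3 (r = 0.983), Rhd (r = 0.981), Derl1 (r = 0.979) and Igsf5 (r = 0.977). Hsp90b1 is an endoplasmic reticulum chaperone, Dnajc3 a co-chaperone there and Derl1 part of the export of misfolded proteins from it. Their glucose changes were 0.47 to 0.61 in B6 and 0.55 to 0.74 in BLKS islets, a pattern set by choosing them for their likeness to Slc7a3. The 19 points share arrays in pairs and fall into 4 groups, so r describes the group pattern. Against Slc7a3 the other member probes ran from r = -0.75 for Slc7a8 to r = 0.78 for the first Slc7a11 probe.

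Markers of other islet cells moved beside these results. The 9 tested duct markers of 10 listed summed to 44300 to 70400 in BLKS high and 35600 to 40000 in B6 high glucose, and 3 were higher and none lower in BLKS islets. In this comparison of the strains in high glucose 11.1% of all probes were called. Without both doubtful libraries the share was 15.3%, and Krt18 and Krt8 were called higher too (limma, adjusted p = 0.0113 and 0.00267). With glucose, Krt18 rose by 0.25 in B6 (limma, adjusted p = 0.0291) and Epcam by 0.37 in BLKS islets (adjusted p = 0.00263) over all mice. Without both doubtful libraries these calls held, and Krt8 was called in B6 islets, at 0.21 (limma, adjusted p = 0.0434). Spp1, on the duct list, was then called with glucose too, at 1.69 in B6 (adjusted p = 0.000118) and 1.14 in BLKS islets (adjusted p = 0.00543). The 10 endothelial markers summed to 2400 to 2740 in BLKS high and 2980 to 3450 in B6 high glucose, with 4 lower in BLKS islets. Esam was called lower there too without both doubtful libraries (limma, adjusted p = 0.032). In low glucose the sums were 2920 to 3410 in BLKS and 3310 to 4120 in B6 islets. With glucose Kdr and Emcn fell in B6 islets, by 0.29 and 0.45. In BLKS islets Cdh5, Kdr, Flt1 and Emcn fell, by 0.30, 0.31, 0.41 and 0.52. No endothelial marker was called higher with glucose in either strain. Kdr in BLKS islets was not called without both doubtful libraries (limma, adjusted p = 0.0811). The 16 tested macrophage markers of 18 summed to 5140 to 6480 in BLKS high and 6200 to 8380 in B6 high glucose. Of these Lyz1, Lyz2 and C1qa were called between the strains in high glucose, at -0.62, -0.76 and -0.37. No other macrophage marker was called there, and Cd68, Csf1r and Adgre1 differed by 0.12, 0.07 and -0.004. The 11 stellate and fibroblast markers summed to 2420 to 4270 in BLKS high and 4340 to 8230 in B6 high glucose, with 6 lower in BLKS islets. With glucose, 3 of these 11 rose in B6 islets, where all 11 had a positive change (median 0.38) and the sum was 3100 to 5140 in low glucose, and none was called in BLKS islets. All probes were called at 9.53% and 11.6% in these glucose responses. Of the 10 tested lymphocyte and neutrophil markers of 14, S100a9 was called, at 2.14 with glucose in BLKS islets and 1.73 between the strains in high glucose, and the list summed to 1330 to 1690 in BLKS high against 1210 to 1340 in B6 high glucose. Over both strains 1 beta cell marker of 13 rose with glucose and 5 fell, among them Slc2a2 by 0.57 and Ucn3 by 0.59, where 22.3% of all probes were called. The part of these shifts in the transporter differences was not tested.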

How the data were processed

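Total RNA (200 ng per mouse) was amplified, labelled with both Cy3 and Cy5 and hybridized to Agilent Mouse Whole Genome arrays, so that each mouse was measured in either dye. The authors deposited Feature Extraction intensities for 20 arrays and a log2 value table. The deposited intensities carry software version 9.5.3.1 in their headers, while the submitters' processing notes name Agilent Feature Extraction 8.1; background subtraction was off. The log2 table followed the mean log2 spot signal (lowest r = 1; SD of the difference up to 0.0169), was not scaled between arrays (column medians 6.23 to 6.53), and served as an alternative. The processed intensities were already dye-normalized in the deposited files.

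Here control and outlier spots were dropped, Aquantile scaling was applied between arrays in limma 3.58.1 (R 4.3.3), and log2 values were averaged over spots and dyes per mouse. A probe was tested if it was well above background in every channel of at least 4 mice. That flag was loose in Cy3, where 83.9% of negative control spots passed it (0.318% in Cy5). Median signals were 75 to 103 per channel and those of negative controls 50.8 to 60.9, and no member spot was saturated. The main model had 4 group means, with Benjamini-Hochberg adjustment over all 29326 probes at 0.05, and was tested on simulated data. The simulated mice were independent of each other and carried large changes. That test therefore does not cover shared arrays, the doubtful libraries or small changes. Single values had exact permutation tests. Replicates were separate mice, and their number limits the precision. Symbols were updated through RefSeq, which matched 82.1% of tested probes.

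Same-numbered mice of both strains at 1 glucose level shared an array pair per the labels. Their deviations from group means correlated at 0.02 to 0.695 (median 0.482) in 9 pairs, against a median of -0.0534 for other pairs. A repeat of B6 low glucose 1 and B6 high glucose 5 were scanned on a later day; the submitters' design text counts 1 more B6 low glucose mouse than the labels.

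The members and lists were chosen with earlier results of these data known. Named genes were all member probes, up to 3 called genes with the largest change per list in each glucose response and in the strain difference in high glucose, and the 5 named genes most correlated with Slc7a3. Aldh18a1 and Asns in BLKS islets, Slc38a2 in B6 islets and Odc1 in BLKS islets were named after their values were seen. So were the single cell type markers, the tRNA synthetases of the low glucose strain difference, Nupr1, Phgdh, Trib3, A_52_P368057 and A_52_P663446. Alternatives were background correction, scaling, filter, the authors' table, single dyes, later arrays, array pair block, outlier spots, the methods' linear model and leaving out mice. Figures were drawn with matplotlib.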

Additional observations from a re-analysis of the deposited data

Results flagged for a closer look

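Over 44 groups of 4 or 5 mice, 1 for each member probe and group, 4 held a mouse set apart from the rest of its group by Dixon's test at the 95% level, where chance flags about 1 in 20. For Slc7a3 in BLKS low glucose, the library labelled BLKS low glucose 5 lay at 6.96 against 7.75 to 7.99 in the others (ratio of gap to range 0.768). For Slc7a2 in BLKS high glucose, mouse 3 lay at 7.24 against 6.97 to 6.99 (ratio 0.929). For Slc7a5 in BLKS high glucose, mouse 2 lay at 10.84 against 10.94 to 10.95 (ratio 0.871). For the Slc7a11 probe A_51_P129502 in B6 high glucose, mouse 3 lay at 6.22 against 6.15 to 6.17 (ratio 0.728).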

How the results depend on the processing

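The rise of Slc7a3 with glucose passed the test in all 32 alternatives for each strain, at 1.09 to 1.37 in B6 and 1.33 to 1.58 in BLKS islets, and its strain difference in high glucose in all 33, at 0.90 to 1.03. Its strain difference in low glucose became significant with Cy3 alone (0.64), with shared arrays as a fixed or random replicate block (0.66), with the methods' linear model (0.66), which counts the dyes of a mouse as separate values, and without both doubtful libraries (1.0). Without single mice it was 0.56 to 0.84, and significant only without B6 mouse 4 (0.82) or BLKS mouse 5 (0.84) in low glucose. No called result of a member changed sign. Uncalled ones did, such as the difference between the Slc7a3 responses (0.30, and -0.04 without both libraries) and the low glucose strain difference of Slc7a1 (-0.14 with Cy5 alone, 0.34 with Cy3 alone). Member probes called for that difference numbered 1 with Cy3 alone, 2 with either replicate block or the methods' linear model, 6 without both libraries and 2 to 3 without either library, against 0. For the B6 glucose response the count was 1 without scaling, with the stricter filter, the authors' table, either dye alone, without the later arrays or with the random replicate block, 1 or 2 without single mice, and 4 without both libraries, against 2. For BLKS islets it was 2 with the methods' linear model, against 1. Over both strains it was 1 in those settings other than without the later arrays, 4 with the methods' linear model or without both libraries, and 1 to 4 without single mice, against 2. In the glucose responses a count of 1 was the loss of the dim Slc7a11 probe. The replicate block called Slc7a8 as well as Slc7a3 in low glucose, lost the dim Slc7a11 probe, and changed no other call of a member. Over all probes, the strain difference had 0 to 4709 calls in low glucose under the other settings (0 here) and 935 to 7389 in high glucose (3258), with 1212 to 5551 for the B6 glucose response (2795), 997 to 6640 for the BLKS glucose response (3401), 3385 to 9897 over both strains (6539) and 4 to 236 for the difference between them (12). The fewest came from the authors' table in the last 5, and the most from the random replicate block or the methods' linear model. The causes were not tested. The fixed block could not be fitted to the glucose responses, since no array pair held both concentrations except the later one. Signal over background limits Slc7a11.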
